A study of Mus musculus with 10 samples.

Results

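Transcripts of 10 genes that write, bind or remove Polycomb and DNA methylation marks were followed through 4 sorted progenitor groups of mouse bone marrow. The genes are Ezh1, Ezh2, Eed, Suz12, Bmi1, Cbx7, Dnmt1, Dnmt3a, Dnmt3b and Tet2. They were found by gene symbol, and all 10 were measured among the 23152 genes that the arrays report. A gene value is the mean log2 signal of the probe sets annotated to that 1 symbol, each of which reads a short stretch of a transcript.

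Every group came from adult C57BL/6 mice, with no genetic change or treatment named in the labels. Lymphoid-primed multipotent progenitors (LMPPs) carried no lineage markers and were sorted as high for cKit, Sca-1 and Flt3. They were split by CD127, the interleukin 7 receptor α chain, into LMPP-s (CD127-, n = 3 arrays) and LMPP+s (CD127+, n = 3). Common lymphoid progenitors (CLPs) were low for cKit and Sca-1, high for Flt3 and positive for CD127, and were split by the surface protein Ly6D into Ly6D-CLPs (n = 2) and Ly6D+CLPs (n = 2). The study set both LMPP groups against CLPs. The labels do not say whether arrays of a group came from separate animals or sorts, so the tests reflect only array-to-array spread, which may be technical. They also give no array batch, so array handling and progenitor type cannot be told apart.

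Polycomb proteins form a pair of chromatin complexes. Polycomb repressive complex 2 (PRC2) methylates lysine 27 of histone H3 and needs a catalytic subunit, Ezh1 or Ezh2, together with Eed and Suz12. Polycomb repressive complex 1 (PRC1) places ubiquitin on histone H2A. Bmi1 is one of its core subunits, known for its part in blood stem cell self-renewal, and Cbx7 is a subunit that reads the PRC2 mark. Dnmt1 copies DNA methylation to the new strand after replication, Dnmt3a and Dnmt3b add it to unmethylated sites, and Tet2 oxidises methylcytosine, the first step of its removal. Dnmt3a and Tet2 are among the genes most often mutated in clonal blood cell growth.

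Promoter sequences of Tet2, Dnmt1 and Ezh2 are shown because these genes gave the lowest unadjusted p-values between groups. RefSeq start sites were matched for all 10 genes, with 14 starts in all, since Dnmt1 and Dnmt3a have 3 each. Each window holds 250 bases before and 50 after the start, 5′ to 3′, and capitals mark CG pairs, the sites that DNA methyltransferases act on.
Tet2, GRCm38.p6 chr3:133544341-133544640, minus strand: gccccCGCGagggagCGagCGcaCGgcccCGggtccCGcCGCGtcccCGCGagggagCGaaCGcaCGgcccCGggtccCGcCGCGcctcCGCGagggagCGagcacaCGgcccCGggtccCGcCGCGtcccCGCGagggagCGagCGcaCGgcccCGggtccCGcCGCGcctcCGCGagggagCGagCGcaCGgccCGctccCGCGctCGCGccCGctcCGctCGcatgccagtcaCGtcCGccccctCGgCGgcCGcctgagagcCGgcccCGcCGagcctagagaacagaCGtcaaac
Ezh2, GRCm38.p6 chr6:47594981-47595280, minus strand: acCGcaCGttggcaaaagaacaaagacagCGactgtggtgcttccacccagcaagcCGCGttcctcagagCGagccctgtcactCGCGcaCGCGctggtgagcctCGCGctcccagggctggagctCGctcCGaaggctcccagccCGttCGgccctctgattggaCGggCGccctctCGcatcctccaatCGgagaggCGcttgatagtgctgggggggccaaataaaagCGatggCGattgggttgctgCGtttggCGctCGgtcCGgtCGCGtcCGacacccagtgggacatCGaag
Dnmt1 start 3, GRCm38.p6 chr9:20952574-20952873, minus strand: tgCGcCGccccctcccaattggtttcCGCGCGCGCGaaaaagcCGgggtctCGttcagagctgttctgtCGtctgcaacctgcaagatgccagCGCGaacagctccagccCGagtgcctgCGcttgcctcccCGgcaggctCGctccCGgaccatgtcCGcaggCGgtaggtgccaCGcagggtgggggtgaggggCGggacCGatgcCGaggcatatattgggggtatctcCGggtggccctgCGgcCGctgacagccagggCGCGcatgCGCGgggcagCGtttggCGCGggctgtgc

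The Tet2 window held 57 CG pairs, and 99.8% of the 32851 promoters in the table held fewer. Their median was 7. Ezh2 held 31 CG pairs, and the 3 starts of Dnmt1 held 2, 12 and 33. Among the other genes, counts ran from 17 in Eed to 47 at the second start of Dnmt3a. The words TTTCCCGC, TTTGGCGC, TTTCGCGC and TTTGCCGC, forms of the site bound by E2F cell cycle factors, were searched on both strands. They occurred at Ezh2, Suz12 and the third start of Dnmt1, 3 of 14 starts, against 2.26% of all promoters. Each word itself holds a CG pair, and those 3 windows held 31, 41 and 33 CG pairs, against the median of 7. The 2.26% is not matched for CG content, and a matched share was not tested. These matches describe sequence only, and the arrays measure neither methylation nor binding.

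The sort markers followed most of the labels. Il7r, which encodes CD127, averaged 4.32 in LMPP-s, under the low-signal limit of 4.43, and 9.10 in LMPP+s. That limit is the 95th percentile of 1419 olfactory, vomeronasal and taste receptor genes, not expected in marrow. Kit was lower in CLPs than in LMPPs by 1.18 log2 (limma, adjusted p = 6.78e-05). Ly6d averaged 11.33 in Ly6D+CLPs, 5.88 in Ly6D-CLPs and 8.67 in LMPP+s, a group not sorted on Ly6D. Flt3 averaged 9.82 to 10.25 in the groups. Ly6a, the gene of Sca-1, did not follow the sort. It averaged 5.82 in LMPP-s, 7.02 in LMPP+s, 5.51 in Ly6D-CLPs and 6.30 in Ly6D+CLPs, so LMPP-s lay below Ly6D+CLPs. Markers of other cells differed between groups too. The summed linear signal of 10 mature granulocyte genes ran from 2707 to 4036 in LMPP+s and from 309.5 to 1065 over the LMPP-s arrays. In the CLP arrays it ran from 409.2 to 716.1. Of the 10 granulocyte genes, 6 were called higher in LMPP+s than in LMPP-s, against 1.47% of all genes called in either direction. Mmp8 and Cxcr2 went the other way without a call, at 5.22 and 5.61 in LMPP-s and 4.59 and 5.09 in LMPP+s. The sum of 10 erythroid and megakaryocyte genes was also highest in LMPP+s, at 774 to 1282, and that of 9 macrophage and monocyte genes was highest in LMPP-s, at 1127 to 1817. Of these 9 genes, 3 were called higher in LMPP-s than in LMPP+s. Adgre1, Fcgr1 and Mrc1 were under the low-signal limit in every group, and C1qb was lower in LMPP-s (4.24) than in LMPP+s (4.74). Pairs of arrays within a group correlated at r of 0.9725 to 0.9855 across genes.

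No difference of the 10 genes passed the adjusted threshold of 0.05 in any of 7 comparisons between groups, 0 of 70 in all (limma, Benjamini-Hochberg over all genes). Unadjusted p was under 0.05 for 7 of the 70, while between 9.1% and 27.5% of all genes passed that limit in each comparison. The share of all genes called after adjustment was 1.47% for LMPP+s against LMPP-s, 14.1% for CLPs against LMPPs and 0.0993% for Ly6D+CLPs against Ly6D-CLPs. It was 2.06% for Ly6D-CLPs and 4.03% for Ly6D+CLPs against LMPP+s, and 7.1% and 10.9% for the same groups against LMPP-s. A moderated F test for any difference among the 4 groups also called none of the 10, against 9.38% of all genes. Tet2 alone of the 10 had an unadjusted p under 0.05 in it, as did 24.5% of all genes. The 95% interval lay within 2-fold in both directions for 67 of the 70 differences, and the other 3 were all of Bmi1. These intervals are not adjusted for the number of genes tested, so a difference whose interval excluded 0 could still go uncalled. Tet2 in Ly6D-CLPs against LMPP+s, at 0.65 (95% interval 0.31 to 0.998), was such a case. With 2 or 3 arrays a group, smaller differences may also have been missed.

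**Figure D1:**
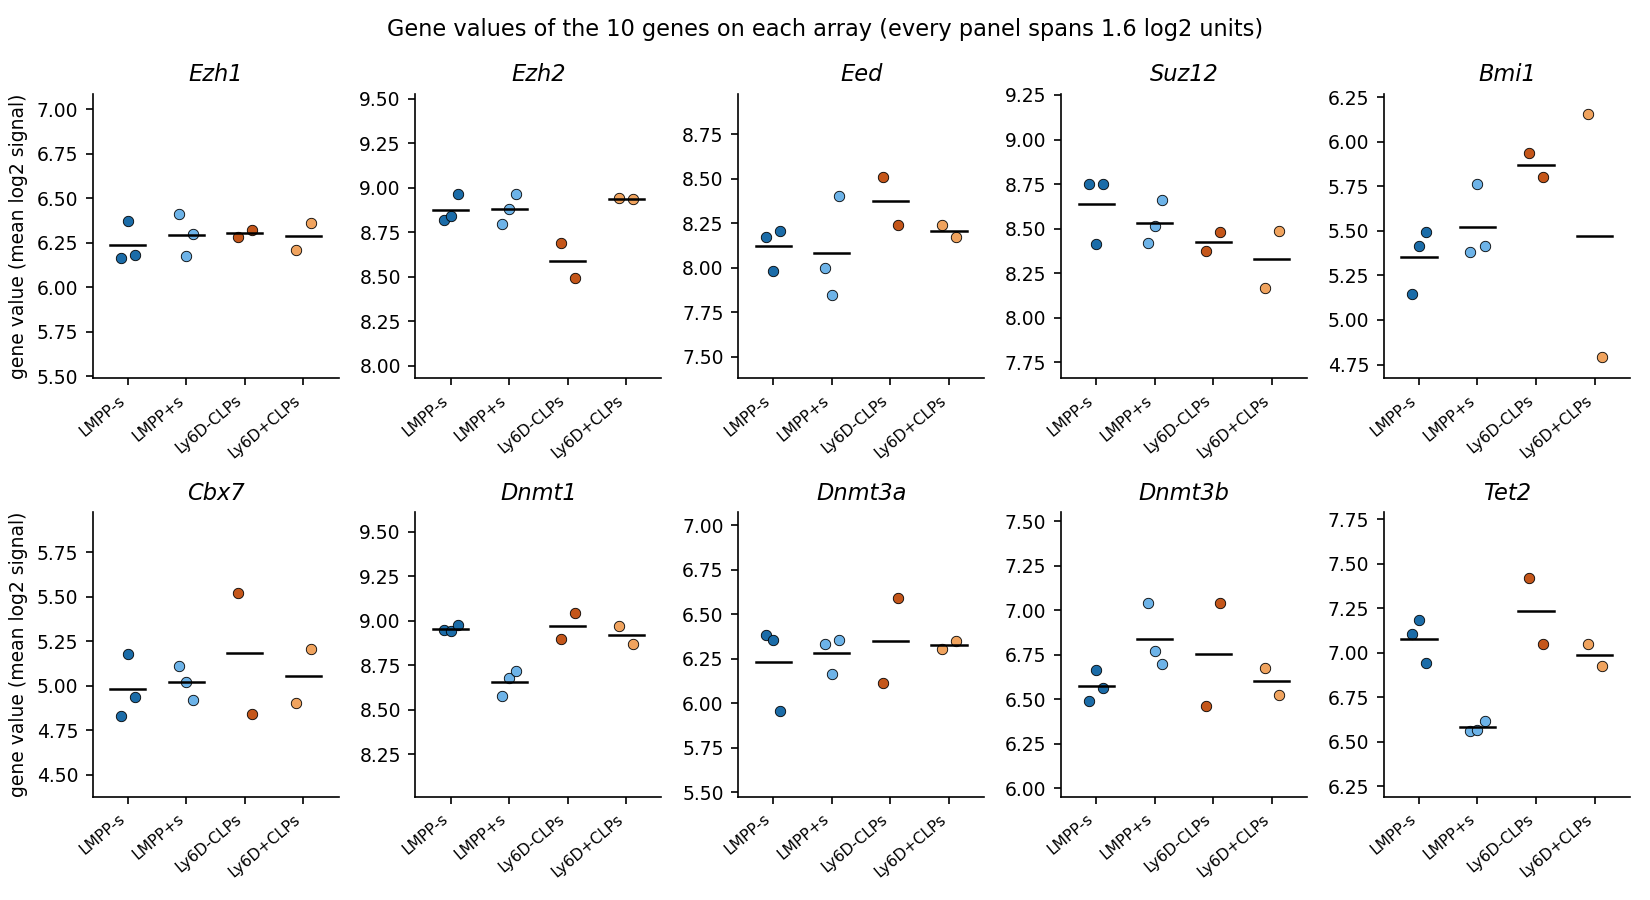
Gene values (mean log2 signal of the probe sets) of the 10 genes, with 1 point per array, a line at each group mean and the 4 sorted groups along the horizontal axis. The LMPP+s arrays of Tet2, at 6.56 to 6.62, lie below all other arrays, and the Ly6D+CLPs arrays of Bmi1 lie far apart at 6.15 and 4.79.

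Tet2 had its lowest values in LMPP+s. The gene, on chromosome 3 (133463677 to 133545136, GRCm38.p6), was read by 12 probe sets. Its values were 7.11, 7.18 and 6.94 in LMPP-s and 6.56, 6.56 and 6.62 in LMPP+s. The CLP arrays measured 7.42 and 7.05 in Ly6D-CLPs and 7.05 and 6.93 in Ly6D+CLPs. All 3 LMPP+s arrays lay below every other array, and the other groups overlapped except for Ly6D+CLPs, whose arrays did not exceed those of Ly6D-CLPs.

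The Tet2 value in LMPP+s was lower than in LMPP-s by a log2 difference of -0.50 (SE 0.14, adjusted p = 0.152, limma). Ly6D-CLPs were higher than LMPP+s by 0.65 (SE 0.16, limma adjusted p = 0.0587), and Ly6D+CLPs by 0.41 (SE 0.16, limma adjusted p = 0.182). The F test gave an adjusted p of 0.0608 (limma). Of its 12 probe sets, 11 were lower in LMPP+s than in LMPP-s, and 5 of them without overlap of the arrays, against 12.7% of all probe sets without overlap in either direction. None of these differences passed the threshold as planned. The adjusted p of Tet2 depended on the setting. For LMPP+s against LMPP-s it ran from 0.0471 with limma's trend and robust options, the 1 setting past the threshold, to 0.491 with the median probe set and 0.926 with the brightest, where the difference was -0.17. For Ly6D-CLPs against LMPP+s it ran from 0.0109 with trend and robust options to 0.261 with the median probe set (limma), and 4 settings passed. Leaving out 1 array gave 0.111 to 0.388 and 0.0668 to 0.206 in these comparisons (limma), so no such fit passed. The granulocyte and erythroid sums were highest in the same LMPP+s arrays, and their part in the Tet2 values was not tested. In sorted bulk samples like these, fewer cells of a type and less RNA per cell cannot be told apart.

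Dnmt1 was also lowest in LMPP+s. This gene, on chromosome 9 (20907206 to 20959888), was read by 31 probe sets. It measured 8.95, 8.94 and 8.98 in LMPP-s against 8.57, 8.68 and 8.72 in LMPP+s. The CLP values were 8.90 and 9.04 in Ly6D-CLPs and 8.97 and 8.87 in Ly6D+CLPs. As with Tet2, no LMPP+s array reached any array of another group. The difference of LMPP+s from LMPP-s was -0.30 (SE 0.12, limma adjusted p = 0.375), and 24 of the 31 probe sets were lower. Only 2 lower and 1 higher probe set had arrays without overlap, against 12.7% of all probe sets. The largest drop, -1.86, was in probe set 17524550, whose LMPP+s arrays read 3.55, 4.93 and 7.83. The brightest, 17524562, averaged 11.66 in LMPP-s and 11.56 in LMPP+s. Ly6D-CLPs were higher than LMPP+s by 0.31 (SE 0.13, limma adjusted p = 0.25). The spread of Dnmt1 within groups was small, since only 1.27% of genes had a smaller one.

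Dnmt3a did not separate the groups. Its group means ran from 6.23 ± 0.24 in LMPP-s (SD, n = 3) to 6.35 ± 0.34 in Ly6D-CLPs (SD, n = 2), and 6 of its 25 probe sets were under the low-signal limit. Dnmt3b measured 6.49, 6.67 and 6.57 in LMPP-s and 7.04, 6.77 and 6.70 in LMPP+s, where all 3 arrays were above those of LMPP-s. The difference was 0.26 (SE 0.17, limma adjusted p = 0.622), with 15 of 18 probe sets higher. The Ly6D-CLPs arrays of Dnmt3b, at 6.46 and 7.04, spanned the whole range of the gene. So in LMPP+s the maintenance enzyme and Tet2 had lower values and Dnmt3b higher ones, and none of the 3 differences passed the adjusted test.

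Among PRC2 subunits, Ezh2 had its lowest values in Ly6D-CLPs. It measured 8.82, 8.84 and 8.97 in LMPP-s, 8.79, 8.88 and 8.97 in LMPP+s, 8.69 and 8.49 in Ly6D-CLPs, and 8.94 on both Ly6D+CLPs arrays. The Ly6D-CLPs arrays lay below all others, while the other groups overlapped. Ly6D+CLPs were higher than Ly6D-CLPs by 0.35 (SE 0.15, limma adjusted p = 0.533). The size varied between probe sets, up to 1.78 in 17466511. The brightest Ezh2 probe set, 17466509, averaged 10.76 in Ly6D+CLPs and 10.70 in Ly6D-CLPs. Of the 21 Ezh2 probe sets 20 were higher in Ly6D+CLPs, 9 of them without overlap, which with 2 arrays a side is common: 34.7% of all probe sets did not overlap in that comparison.

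The other catalytic subunit, Ezh1, was the most even of the 10, with group means that spanned 0.065 log2, from 6.24 ± 0.11 (SD, n = 3) in LMPP-s to 6.30 ± 0.03 (SD, n = 2) in Ly6D-CLPs. Eed measured 8.17, 7.98 and 8.21 in LMPP-s and from 7.85 to 8.40 in LMPP+s. Its CLP values were 8.51 and 8.24 in Ly6D-CLPs and 8.24 and 8.17 in Ly6D+CLPs, so that CLPs and LMPPs overlapped. Suz12 group means were ordered LMPP-s (8.64), LMPP+s (8.53), Ly6D-CLPs (8.43) and Ly6D+CLPs (8.33), but neighbouring groups overlapped. The Suz12 difference of CLPs from LMPPs was -0.21 (SE 0.12, limma adjusted p = 0.294).

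Of the PRC1 subunits, Bmi1 was the least certain. It rested on 4 probe sets and measured 5.15, 5.42 and 5.49 in LMPP-s, 5.38, 5.77 and 5.42 in LMPP+s, and 5.94 and 5.80 in Ly6D-CLPs. The Ly6D+CLPs arrays gave 6.15 and 4.79, the highest and the lowest Bmi1 values of the series. This gap came from the dimmer Bmi1 probe sets, such as 17367297, at 6.86 and 4.68. The brightest, 17367309, read 8.14 and 8.15 on the same arrays, and its difference of CLPs from LMPPs was 0.07. The spread of the Bmi1 gene value within groups exceeded that of 94.2% of genes. CLPs exceeded LMPPs by 0.23 (SE 0.22, limma adjusted p = 0.553). Without Ly6D+CLPs replicate 2 the difference was 0.57 and passed the threshold (limma adjusted p = 0.0352), and without replicate 1 it was -0.11, so the Bmi1 result rested on these arrays. Cbx7, read by 13 probe sets, had group means of 4.98 to 5.18 and arrays that overlapped in all groups. These means are close to the low-signal limit of 4.43, and 6 of the 13 probe sets were under it, so a difference could be hidden.

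Between CLPs and LMPPs as a whole, none of the 10 genes separated the 4 CLP arrays from the 6 LMPP arrays, against 11.8% of all genes. The largest difference was that of Tet2, 0.28 (SE 0.11, limma adjusted p = 0.122). The median absolute difference of the 10 genes was 0.13, against 0.18 over all genes. Over the 6 comparisons of 2 single groups, 16 differences had arrays that did not overlap. These were 3 for LMPP+s against LMPP-s (17.7% of all genes did not overlap) and 3 for Ly6D+CLPs against Ly6D-CLPs (37.6%). Another 4 were for Ly6D-CLPs against LMPP+s (34.3%), 3 for Ly6D+CLPs against LMPP+s (37.9%) and 3 for Ly6D-CLPs against LMPP-s (36.6%). None was for Ly6D+CLPs against LMPP-s (42.5%).

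**Figure D2:**
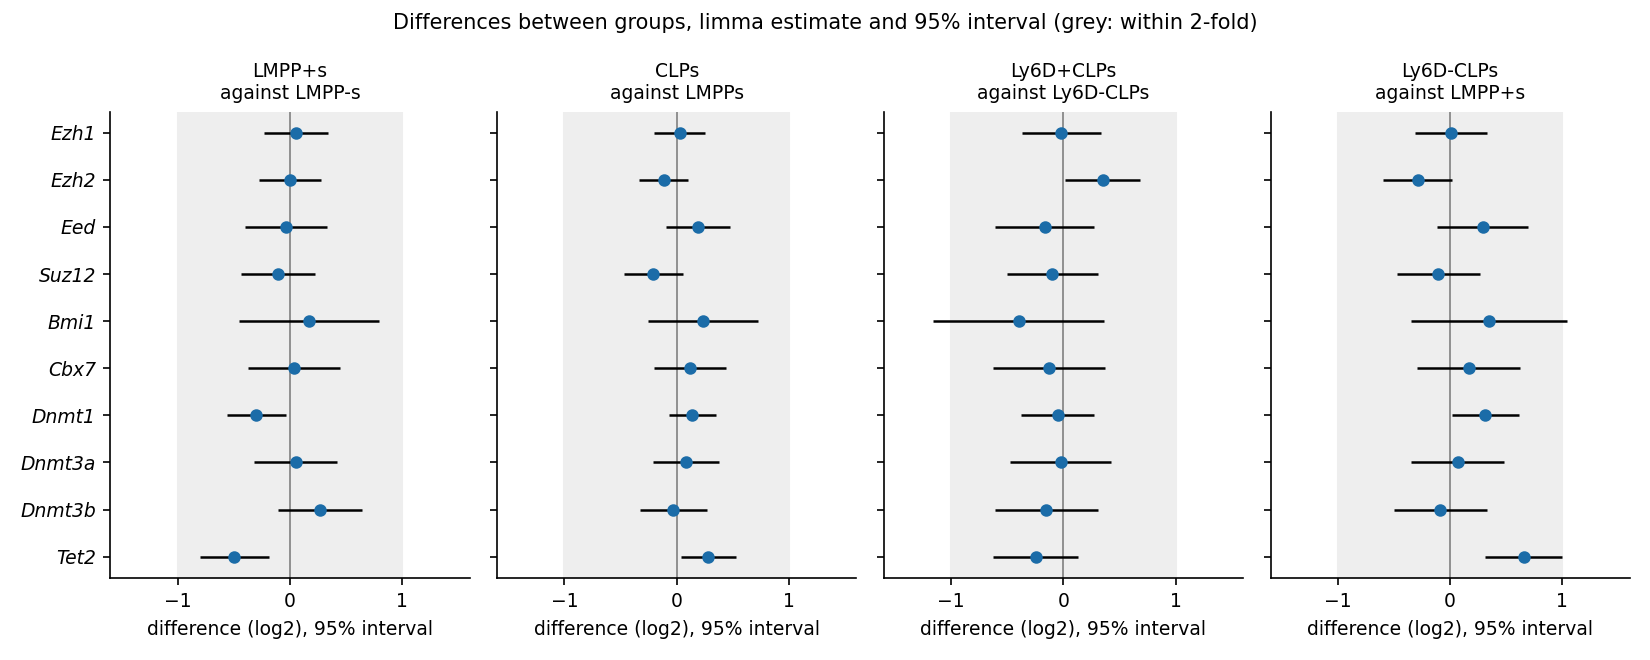
Differences in gene value (log2) of the 10 genes in 4 comparisons, with points at the limma estimate, bars for the 95% interval and grey shading where a change is within 2-fold. The intervals of Tet2 and Dnmt1 in LMPP+s against LMPP-s and in Ly6D-CLPs against LMPP+s exclude 0 before adjustment. So do those of Tet2 in CLPs against LMPPs and of Ezh2 in Ly6D+CLPs against Ly6D-CLPs. The bars of Bmi1 are the widest.

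The gene value averages probe sets along a transcript, so the probe sets were also compared one by one. The 10 genes had 171 probe sets, 21 of them under the low-signal limit. Between CLPs and LMPPs, 19 of the 171 (11.1%) had arrays that did not overlap, against 8.1% of all probe sets. In Ezh2 4 of these were lower and 2 higher in CLPs, and in Dnmt1 all 5 were higher, while the gene means differed little.

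Whether probe sets of a gene moved unequally depended on the test. The planned test, limma's diffSplice, called 5 of the 10 genes in CLPs against LMPPs, against 18.1% of all genes: Ezh2, Dnmt1, Dnmt3b, Eed and Suz12. Genes with many probe sets are called more often, at 27% of those with 12 to 31. This test gives all probe sets of a gene 1 spread, and on simulated data where spreads differed most of its calls were false, so its count is given without weight. A second test, chosen after the data were seen, took each probe set against the mean of the others of its gene with its own spread, and called none of the 10 genes (limma, lowest adjusted p = 0.125). It called 0.0096% of all genes and had little power when tried on test data. A last form, tried after that, let the prior spread follow the signal and called 7 probe sets in 5 genes, against 2.06% of all probe sets and 15.9% of all genes (26.7% of those with 12 to 31 probe sets). The 3 forms gave 5, 0 and 5 genes, so the calls below depend on the form of the test. In LMPP+s against LMPP-s and Ly6D+CLPs against Ly6D-CLPs all 3 forms called none of the 10 genes. The background there was 0.37% and 1.24% of genes in the planned form. In the last form it was 0.0144% and 0.0288% of genes, or 0.0013% and 0.00259% of probe sets. At an unadjusted p under 0.05 the last form picked 51 of the 171 probe sets in CLPs against LMPPs (15.6% of all probe sets). It picked 11 in LMPP+s against LMPP-s (4.67%) and 14 in Ly6D+CLPs against Ly6D-CLPs (6.81%).

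**Figure D3:**
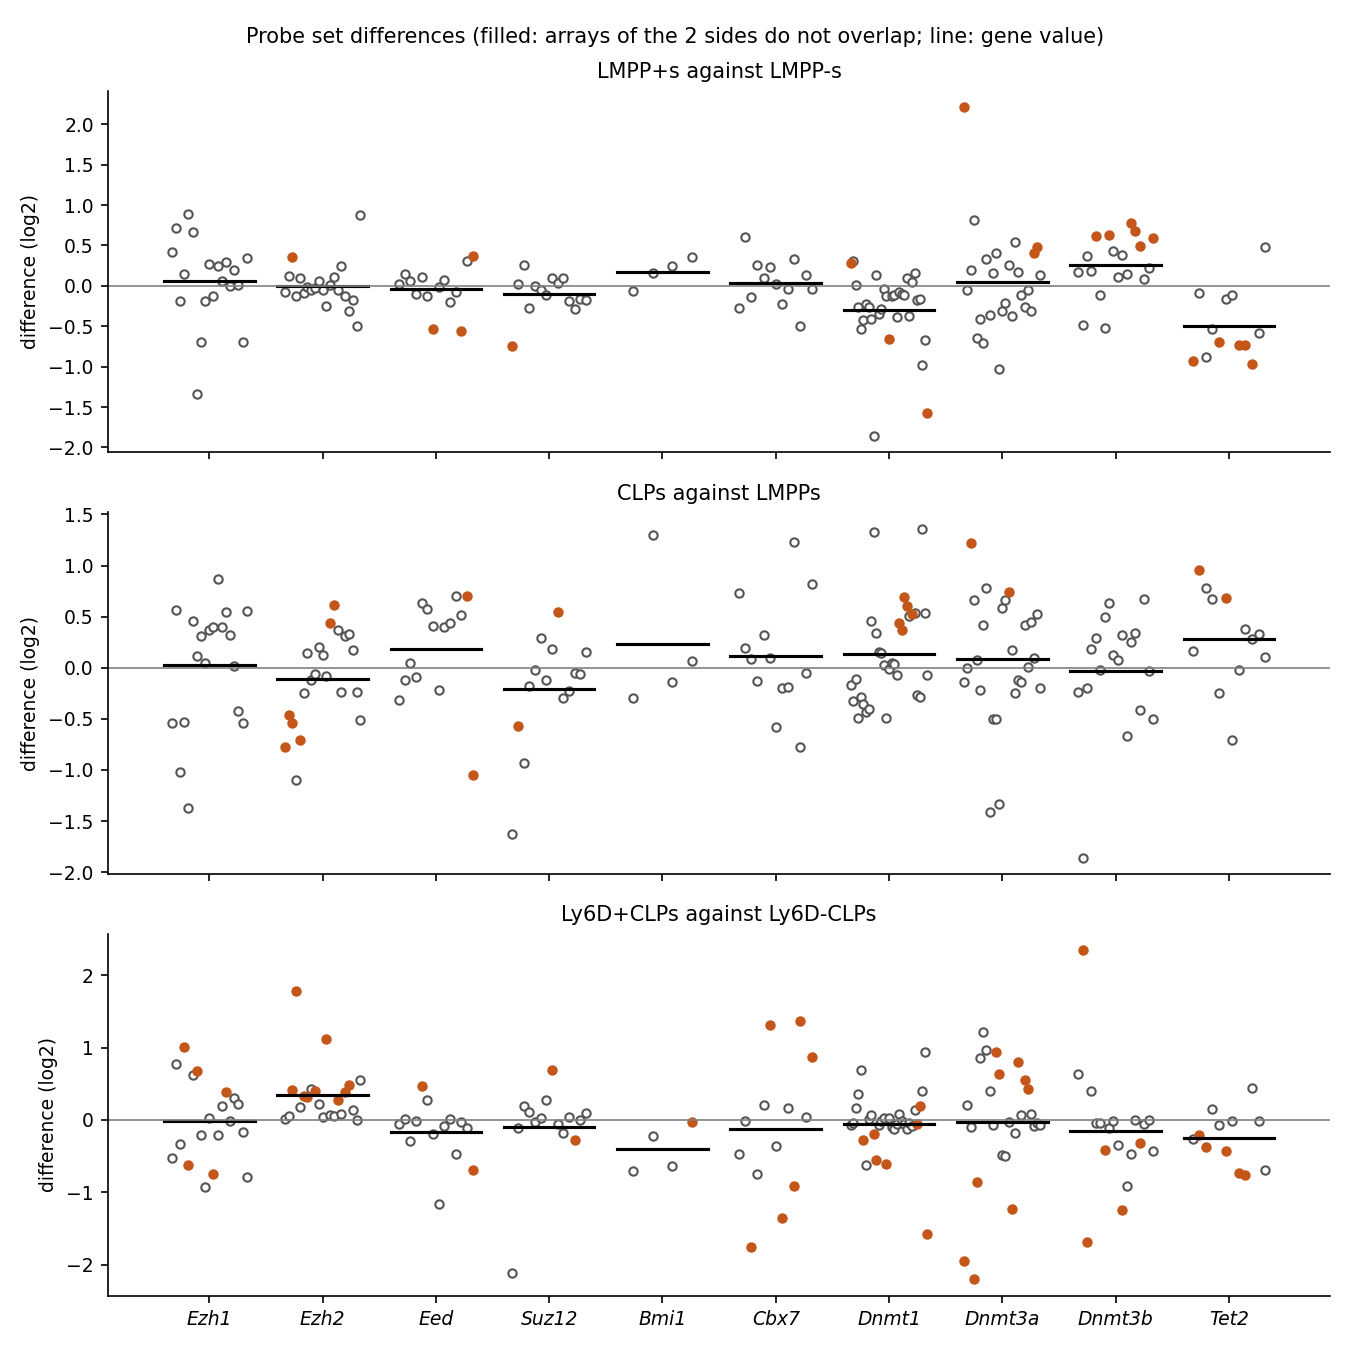
Differences (log2) of all 171 probe sets in 3 comparisons, with 1 point per probe set in order of identifier, filled where the arrays of the sides do not overlap, and a line at the gene value. In the CLPs against LMPPs panel the Ezh2 probe sets fall on both sides of 0, from -1.10 to 0.61.

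The 7 probe sets of the last form were in Suz12, Dnmt1, Ezh2, Eed and Dnmt3a. Suz12 probe set 17253850 measured 10.28, 9.81 and 10.17 in LMPP-s, 9.87, 10.15 and 10.35 in LMPP+s, 10.76 and 10.60 in Ly6D-CLPs, and 10.63 and 10.61 in Ly6D+CLPs. All CLP arrays were above all LMPP arrays, although the Suz12 gene value was lower in CLPs. Relative to the other Suz12 probe sets it was higher in CLPs by 0.81 (limma adjusted p = 0.00485), and it stayed past the threshold without each array in turn.

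Dnmt1 probe set 17524563 measured 11.17 to 11.32 in LMPP-s, 10.90 to 11.33 in LMPP+s and 11.78 to 12.03 in CLPs, again with no overlap. It stood 0.57 above the other Dnmt1 probe sets in CLPs against LMPPs (limma adjusted p = 0.00876), and without Ly6D+CLPs replicate 2 the adjusted p was 0.0605. In Ezh2, probe sets 17466521 and 17466522 were relatively higher in CLPs by 0.58 and 0.76 (limma adjusted p = 0.013 and 0.021), with no overlap. Ezh2 probe set 17466511 was relatively lower by -1.04 (limma adjusted p = 0.0444), through Ly6D-CLPs arrays of 7.01 and 5.72 against 7.97 to 8.77 in LMPP-s, 8.11 to 8.53 in LMPP+s and 8.08 to 8.21 in Ly6D+CLPs.

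Eed probe set 17493251 was relatively lower in CLPs by -0.54 (limma adjusted p = 0.0465) and Dnmt3a probe set 17273677 relatively higher by 0.69 (limma adjusted p = 0.0345). With 1 array left out, the Eed probe set lost its call in 9 of 10 fits and the Dnmt3a probe set in 8. Of the Ezh2 probe sets, 17466511 lost it in 8, 17466522 in 5 and 17466521 in 2. The positions of the probe sets in the transcripts were not used here, so no exon is named for them.

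**Figure D4:**
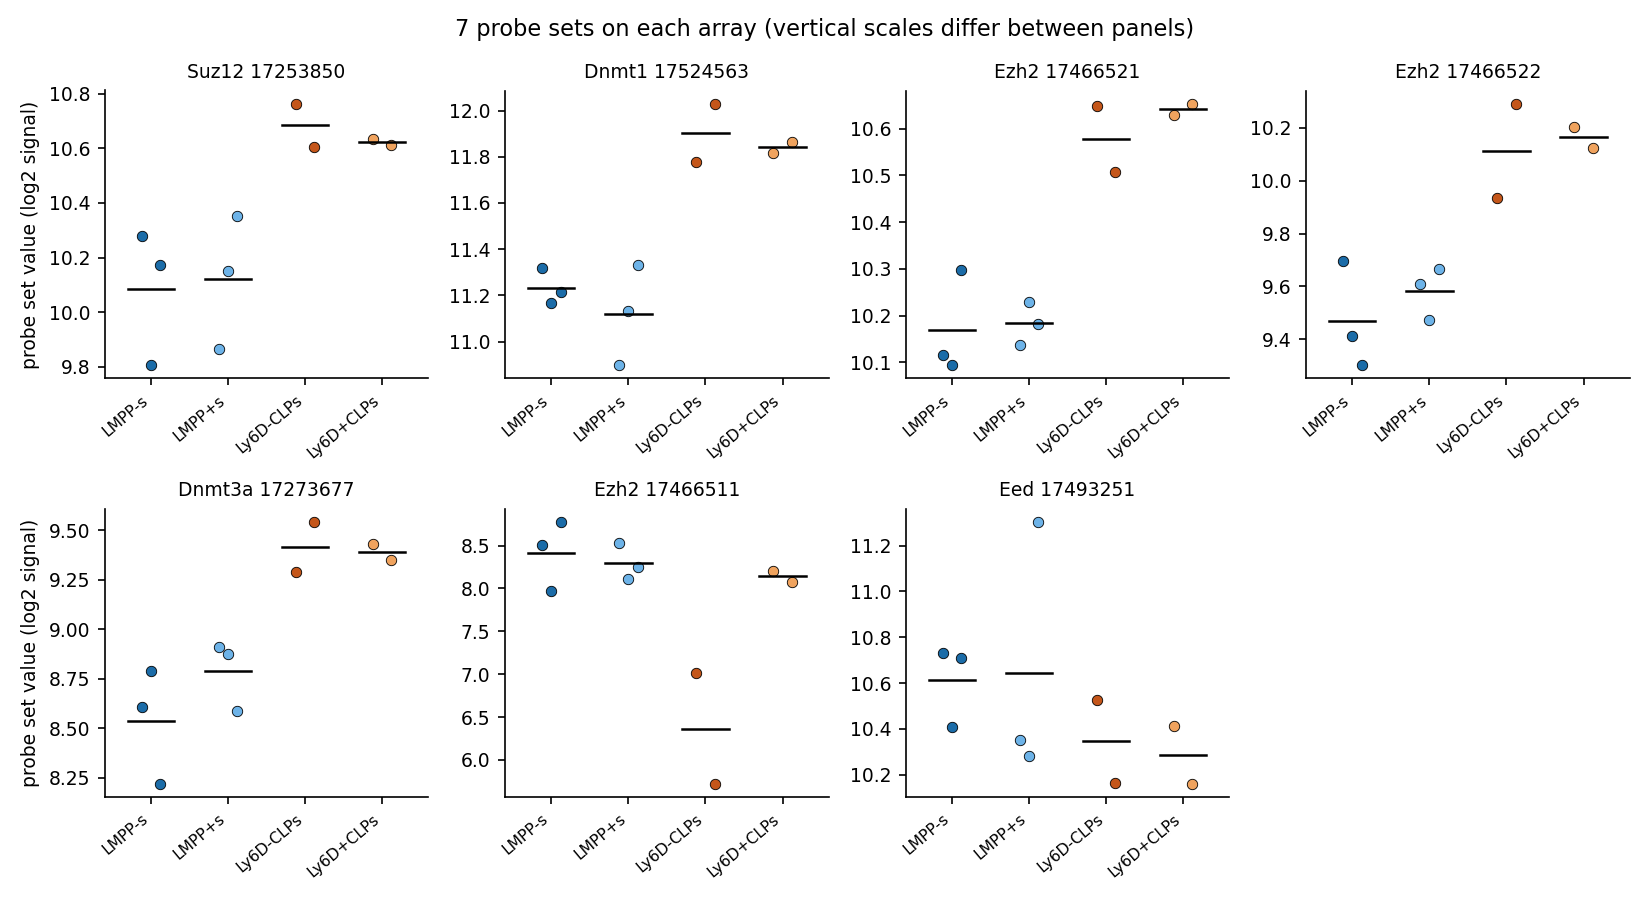
Values (log2 signal) of 7 probe sets named after the test, with 1 point per array and a line at each group mean, on vertical scales that differ between panels. The CLP arrays of Suz12 17253850 and Dnmt1 17524563 lie above all LMPP arrays, and Ezh2 17466511 is low in the Ly6D-CLPs arrays alone.

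In the other genes of these pathways, calls between CLPs and LMPPs were few in the Polycomb complexes. Each count is read against the 14.1% of all genes called in that comparison, and the PRC2, PRC1 and Polycomb target counts are near it. Of 8 other PRC2 genes, 1 rose in CLPs: Jarid2, a DNA-binding partner of PRC2, by 0.43 (SE 0.10, limma adjusted p = 0.0131). Of 18 other PRC1 genes, Rnf2, which encodes the ubiquitin ligase Ring1b, rose by 0.34 (limma adjusted p = 0.0463) and Pcgf1, a subunit of variant PRC1, fell by 0.60 (limma adjusted p = 0.0331). The median difference was 0.04 for the PRC2 genes and 0.13 for the PRC1 genes, against 0.01 for all genes.

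Of 7 genes that remove Polycomb marks, 2 rose in CLPs and none fell. These were the histone H3 lysine 27 demethylases Kdm6b, by 1.03 (SE 0.14, limma adjusted p = 0.000893), and Kdm6a, by 0.52 (SE 0.11, limma adjusted p = 0.00997). The median of the 7 was 0.09.

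Of 16 other genes of DNA methylation and its removal, 1 rose and 4 fell in CLPs, with a median of -0.01. Tdg, the glycosylase that excises oxidised methylcytosine, rose by 0.86 (SE 0.18, limma adjusted p = 0.00922). Idh2 and Idh1, which make the α-ketoglutarate that Tet enzymes need, fell by 0.90 and 0.86 (limma adjusted p = 0.000415 and 0.00244). Ahcy, which clears the by-product of methyl transfer, fell by 0.69 (limma adjusted p = 0.0054), and Mbd3, a subunit of the NuRD complex, fell by 0.50 (limma adjusted p = 0.0135).

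Of 6 Polycomb targets, the Cdkn2a and HoxA genes, Hoxa9 fell by 0.40 in CLPs against LMPPs (limma adjusted p = 0.0401). The other 5 did not pass, and the list had a median of -0.27. The Hoxa9 fall did not hold for each CLP group. Its means were 6.87 in LMPP-s, 7.41 in LMPP+s, 7.14 in Ly6D-CLPs and 6.34 in Ly6D+CLPs, so Ly6D-CLPs lay above LMPP-s. Of 23 proliferation genes 6 fell in CLPs and none rose, with a median of -0.08. The 4 with the smallest p were Cdc20, which fell by 0.76, Gins2, by 0.41, Plk1, by 0.41, and Rrm2, by 0.41 (limma adjusted p = 0.00231 to 0.0277). All 4 serve DNA synthesis or cell division. Rrm2 averaged 7.18 in LMPP-s, 6.56 in LMPP+s, 6.35 in Ly6D-CLPs and 6.56 in Ly6D+CLPs, so Ly6D+CLPs did not lie below LMPP+s.

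Between the LMPP groups the same lists held 1 call, against 1.47% of all genes. Idh1 measured 6.95, 6.83 and 6.86 in LMPP-s and 6.03, 6.30 and 5.67 in LMPP+s, with no overlap, and fell by 0.88 (SE 0.17, limma adjusted p = 0.033). The largest differences in the other lists were Hoxa9 at 0.55, Rrm2 at -0.62, Jarid2 at 0.37, Kdm6b at 0.35 and Cbx8 at 0.24 (limma adjusted p = 0.0561 to 0.733). The medians were -0.18 for the DNA methylation genes and -0.20 for the proliferation genes, against -0.01 for all genes.

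Between the CLP groups no gene of these lists was called, against 0.0993% of all genes. The largest differences of Ly6D+CLPs from Ly6D-CLPs were -0.80 for Hoxa9, 0.63 for Tyms, 0.52 for Mbd3, -0.39 for Ring1, -0.30 for Rbbp7 and 0.09 for Asxl1 (limma adjusted p = 0.174 to 0.91).

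**Figure D5:**
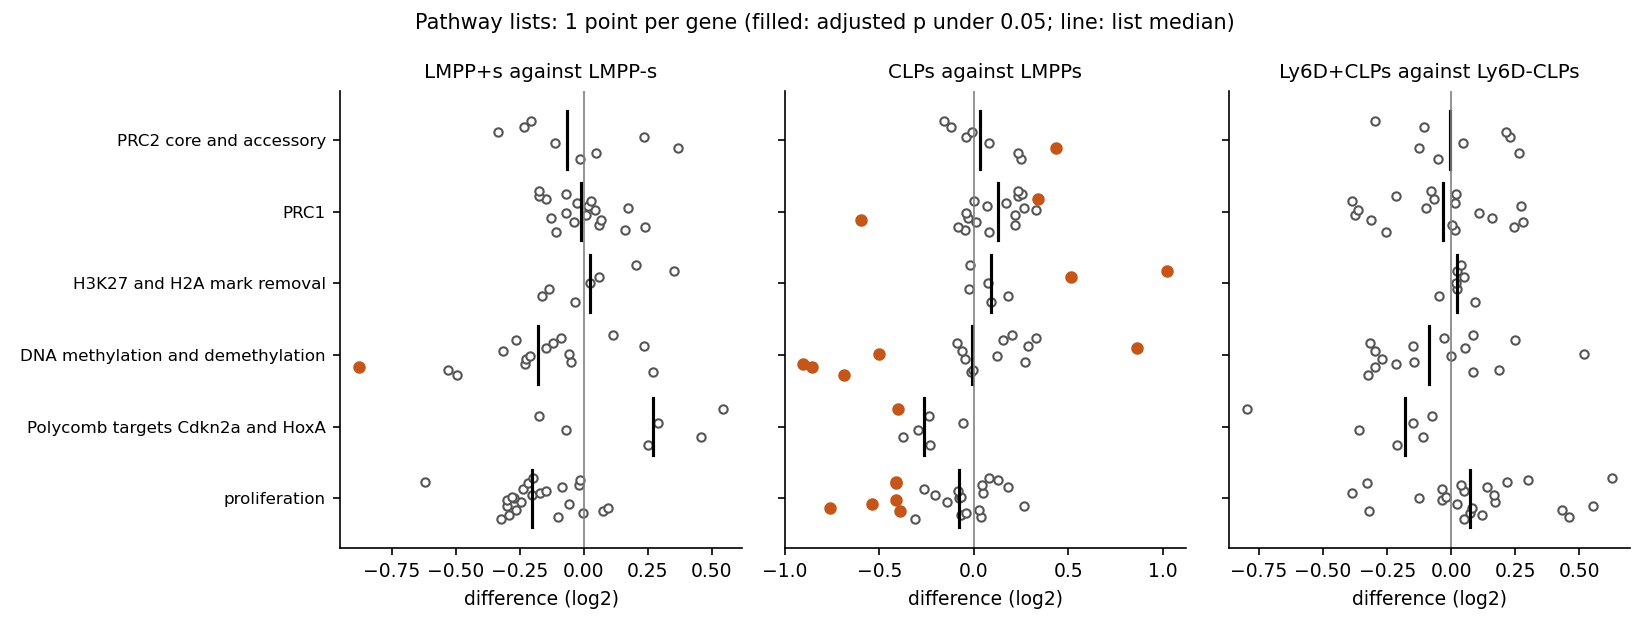
Differences (log2) of the genes of 6 pathway lists in 3 comparisons, with 1 point per gene, filled where the adjusted p is under 0.05, and a line at the list median. LMPP+s against LMPP-s has 1 filled point (Idh1, -0.88) and the CLP groups have none, while 14.1%, 1.47% and 0.0993% of all genes are called in CLPs against LMPPs, between the LMPP groups and between the CLP groups.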

How the data were processed

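Total RNA of 10 samples was measured on Affymetrix arrays, and Affymetrix Power Tools is named in the submitters' processing notes. The authors deposited 1 value per probe set, read here as log2 from a range of 0.204 to 14.79; the sources used here do not give the log base, summary method, normalization or build. Of 269751 probe sets, 233753 with 1 symbol were averaged into 23152 genes. Those with several symbols (5106) or none (30892) were left out. No further normalization was applied.

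Group means were fitted with limma 3.58.1 in R 4.3.3, with Benjamini-Hochberg adjustment over all genes and a threshold of 0.05. Intervals are 95%, and the number of arrays limits the precision. The 10 genes and the lists were chosen with earlier results of these data known. List genes were named by a rule: up to 4 past the threshold with the smallest p, or else the largest difference, and every call where there were 5 or fewer. Likeness to other genes was to be given for members past the F test, and none passed. Probe sets of a gene were compared in 3 forms. The planned diffSplice test made mostly false calls on simulated data, a second form recovered nothing there, and the third was adopted afterwards; the last 2 were chosen after the data were seen. The alternatives changed the scaling (quantile, median), the summary (median or brightest probe set), the low-signal filter, limma's trend and robust options, the arrays fitted, array weights, the replicate block and the threshold (2-fold), and left out each array.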

Additional observations from a re-analysis of the deposited data

How the results depend on the processing

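The count of genes called, 0 as planned, became 1 (Tet2) for LMPP+s against LMPP-s with trend and robust options, and for CLPs against LMPPs with the brightest probe set. For Ly6D-CLPs against LMPP+s it became 1 (Tet2) with median centring, with either low-signal filter and with trend and robust options. For any difference among the 4 groups it became 1 (Tet2) with median centring, either filter or array weights, and 2 (Dnmt1 and Tet2) with trend and robust options. With 1 array left out, counts ran from 0 to 1 for CLPs against LMPPs (Bmi1 without Ly6D+CLPs replicate 2) and for any difference (Tet2 without Ly6D-CLPs replicate 2), and stayed at 0 elsewhere.

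Genes with unequal probe sets in CLPs against LMPPs numbered 5 in the planned test, 0 with own spreads and 1 prior spread, and 5 with a prior spread by signal. Leaving out 1 array gave 4 to 5 there, 0 to 1 for LMPP+s against LMPP-s and 0 to 2 for Ly6D+CLPs against Ly6D-CLPs. The last form called probe sets in 3 to 4 of the genes with 1 LMPP array left out. Leaving out a CLP array, which leaves 1 array in its group, also changed which were called. It called 5 probe sets in 4 genes with quantile normalization, 15 in 6 above the low-signal limit and 5 in 3 with the replicate block. Of the 7 named probe sets, the block kept only Suz12 17253850, Dnmt1 17524563 and Ezh2 17466521.

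Some gene differences changed sign with the setting. None of the differences of the followed genes was called as planned, so such changes could only fall in uncalled differences. They do not show whether a called gene difference keeps its sign, and the called genes of the pathway lists are not covered here. For CLPs against LMPPs with the brightest probe set, Ezh1 was -0.54, Eed -0.31, Cbx7 -0.053 and Dnmt3b 0.13. With the median probe set Dnmt3a was -0.014 and Dnmt3b 0.11, and above the low-signal limit Dnmt3b was 0.10. With 1 array left out, Ezh1 ran from -0.0089 to 0.064, Bmi1 from -0.11 to 0.57, Cbx7 from -0.052 to 0.29, Dnmt3a from -0.040 to 0.20 and Dnmt3b from -0.18 to 0.12. Bmi1 was -0.091 for Ly6D-CLPs against LMPP+s with the brightest probe set. For Ly6D+CLPs against LMPP+s it was 0.25 with the median probe set and 0.12 above the limit. With 1 array left out it ran from -0.73 to 0.63 there, from -1.08 to 0.28 against Ly6D-CLPs and from -0.56 to 0.80 against LMPP-s.

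Replicate numbers gave no clear sign of pairing, though so few arrays cannot settle it. Correlation was over 0.1 for 1 of 13 same-numbered pairs (median 0.016) and 1 of 24 other pairs (median -0.012). With the replicate block 0 of the 10 genes were called for LMPP+s against LMPP-s (lowest adjusted p = 0.211, limma) and 5 still had unequal probe sets in CLPs against LMPPs. Groups of 2 and 3 arrays limit every comparison.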
